A study of Mus musculus with 6 samples.

Results

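Mir223, Mir142, Mir150, Mir155, Mir146a and Mir21a are 6 microRNA (miRNA) genes known from mature myeloid and lymphoid cells and from inflammation. They were taken by name, and each was found as 1 feature by its position among the GENCODE M21 miRNA genes of the mouse build GRCm38. Mir146a carries the name Mir146 in that annotation and was recognised by its RefSeq mature products. The 6 are part of 912 miRNA features among 1823 non-coding RNA features with at least 1 read in any library. They were measured in 3 libraries of maternal knockout (KO) mice, labelled Mat KO, and in 3 libraries of wild-type (WT) mice, where the mutation concerns the imprinted Dlk1-Gtl2 locus. The RNA came from bone marrow, and the stated design is on Lin- cells, which remain after mature, lineage-marked blood cells have been removed. The labels give neither the deleted part of the locus nor strain, age, sex or number of mice, and nothing says that libraries of a genotype came from separate animals, so p-values describe the spread between these libraries only.

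A miRNA is cut from a hairpin precursor into a short mature strand, and its seed, bases 2 to 8, pairs with target messenger RNAs and lowers their output. In blood, miR-223 is known from granulocytes and monocytes, where it restrains neutrophil activity, and miR-142 from nearly all blood cells. miR-150 is known from mature B and T cells and targets the transcription factor Myb through its 5p strand, while miR-155 is induced in activated lymphocytes and macrophages. miR-146a is induced by NF-kB and dampens that pathway through Traf6 and Irak1, and miR-21 is made in many cell types and rises with inflammation. The libraries were size-selected for RNAs of snoRNA length, so reads of these features are taken as reads of the precursor's region, which is longer than the mature strand.

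Mature strands are shown so that their seeds can be compared, and they are printed 5′ to 3′ with the seed in capitals, from RefSeq on GRCm38.p6. Mir223 is encoded on chromosome X, and Mir142, Mir146a and Mir21a on chromosome 11. Mir150 is on chromosome 7, Mir155 on chromosome 16 and Mir146b on chromosome 19.
mmu-miR-223-3p: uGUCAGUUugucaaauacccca
mmu-miR-142a-5p: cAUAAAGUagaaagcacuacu
mmu-miR-142a-3p: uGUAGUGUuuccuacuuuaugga
mmu-miR-150-3p: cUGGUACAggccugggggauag
mmu-miR-155-5p: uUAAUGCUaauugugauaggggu
mmu-miR-146a-5p: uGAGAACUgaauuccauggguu
mmu-miR-146b-5p: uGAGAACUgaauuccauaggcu
mmu-miR-21a-5p: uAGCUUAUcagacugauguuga
The strand miR-150-5p is not printed here. Among the strands printed, no member shares a seed with another member. The seed of miR-146a-5p is shared by 2 of the 1679 mature names in the RefSeq table, itself and miR-146b-5p, and the pair differs by G18A and U21C, with positions counted from the 5′ end and the base of miR-146a-5p first. The seed of miR-21a-5p is shared with miR-21c. The other seeds printed here each occur in 1 mature name.

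The members differ in where they lie. Mir223 (chromosome X, 96242817 to 96242926, plus strand, 110 nt) lies in an exon of both annotated transcripts of the non-coding gene F630028O10Rik. Mir155 (chromosome 16, 84714140 to 84714204, plus strand, 65 nt) lies in an exon of its non-coding host Mir155hg. Mir21a (chromosome 11, 86584067 to 86584158, minus strand, 92 nt) lies in an annotated UTR of the protein-coding gene Vmp1, on the same strand. Mir150 (chromosome 7, 45121757 to 45121821, plus strand, 65 nt) and Mir146a (chromosome 11, 43374397 to 43374461, minus strand, 65 nt) overlap no other annotated gene. For the members inside an exon, reads of the precursor and of the host transcript cannot be told apart in these counts.

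Mir142 (chromosome 11, 87756864 to 87756927, plus strand, 64 nt) lies in an intron of Mir142hg, and a second feature, Mir142b (87756841 to 87756955, minus strand, 115 nt), covers it from the opposite strand. The hairpins are printed to show this overlap. In Mir142 the capitals mark the mature arms, and in Mir142b they mark the stretch that is the exact reverse complement of the whole Mir142 hairpin.
Mir142 hairpin: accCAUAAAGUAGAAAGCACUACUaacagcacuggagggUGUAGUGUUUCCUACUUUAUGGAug
Mir142b hairpin: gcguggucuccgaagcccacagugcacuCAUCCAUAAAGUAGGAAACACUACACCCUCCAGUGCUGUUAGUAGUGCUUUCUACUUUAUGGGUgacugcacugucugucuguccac
No strand setting of the counting is given in the sources used here, so the counts of Mir142 and Mir142b are uncertain as a pair.

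Total counts were 47299957 to 51837721 for KO and 45398303 to 53299322 for WT, and 2 libraries stood apart for miRNA features. Among the 205 miRNA features abundant enough to be tested, the median log2 level relative to the mean of the 6 libraries was 0.56 in KO replicate 2 and -0.49 in WT replicate 1, against -0.16 to 0.33 in the other 4. Over the 169 tested features that are not miRNA and are as long as the members, 64 to 110 nt, it was between -0.11 and 0.06 in all 6. Over all 419 tested features that are not miRNA it was -0.26 in KO replicate 2, the lowest library for 46.3% of them, and 0.14 in WT replicate 1. KO replicate 2 also held reads of muscle miRNAs: the 5 features of Mir1a, Mir133a and Mir206, picked after their values were seen from a longer list of non-blood miRNAs, summed to 773 reads there, 4 and 12 in the other KO libraries and 5 to 18 in the WT libraries. The liver miRNA Mir122, also picked after its values were seen, had 0, 1 and 0 reads in KO replicates 1 to 3, against 20, 23 and 0 in WT replicates 1 to 3. The part of either in the values of the members was not tested.

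**Figure D1:**
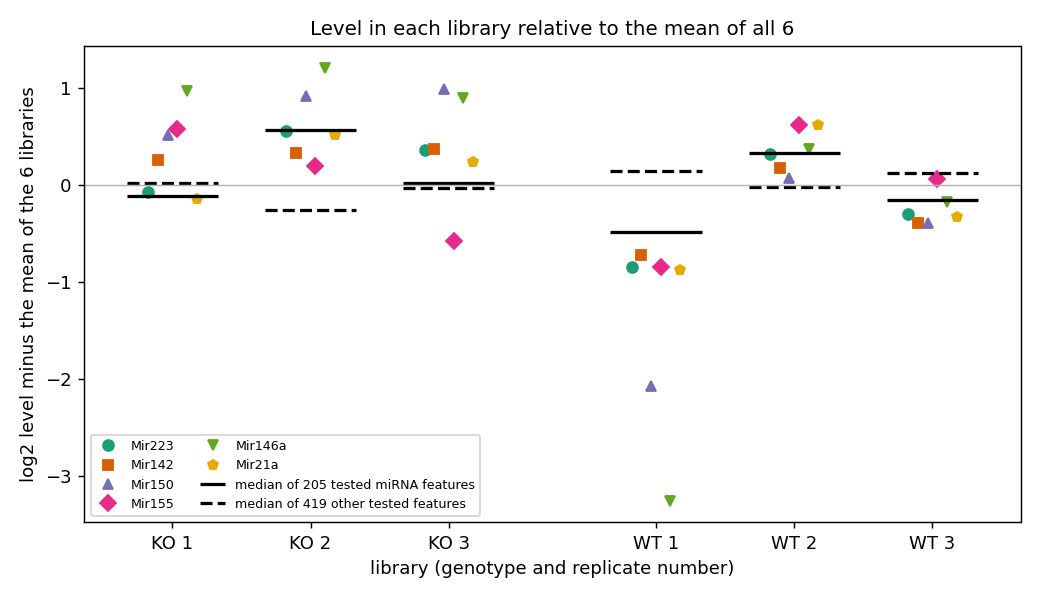
Level (y axis, log2 CPM with TMM scaling) of each member in each library minus its mean over the 6 libraries, where CPM is the count scaled by the library total; black bars are medians of 205 tested miRNA features (solid) and 419 other tested features (dashed). In WT replicate 1 all 6 members lie below the mean, with Mir146a at -3.25 and Mir150 at -2.08.

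The members spanned a wide range of levels. Levels between genes are given as CPM per kilobase of feature. Mir21a had 11334 ± 2612 for KO and 9699 ± 5206 for WT (SD, n = 3 each), and it ranked second of the 912 miRNA features in both genotypes, behind a feature annotated as miRNA whose symbol is Snord43. Mir223 had 165 ± 37 for KO and 122 ± 48 for WT, ranks 35 and 37. Mir155, the lowest, had 4.88 ± 1.87 for KO and 4.87 ± 2.57 for WT, ranks 173 and 160. On this scale the mean of Mir21a was 68.5-fold that of Mir223 for KO and 79.8-fold for WT.

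The other 3 members lay between Mir223 and Mir155. On the same scale per length, Mir150 had 79.3 ± 16.3 for KO and 31.7 ± 19.5 for WT. Mir146a had 48.3 ± 4.8 for KO and 18.5 ± 15.1 for WT. Mir142 had 33.3 ± 2.9 for KO and 23.0 ± 7.5 for WT. In the KO libraries the order was Mir21a, Mir223, Mir150, Mir146a, Mir142 and Mir155, and the values of neighbours did not overlap over the 3 libraries. In the WT libraries Mir142 came before Mir146a, and the values of Mir150, Mir142, Mir146a and Mir155 overlapped between each pair of neighbours. The order of Mir150, Mir142 and Mir146a there, and that of Mir146a and Mir155, does not stand above the spread. Mir150 and Mir142, at 10.7 and 16.7 in their lowest WT library, stayed above the highest WT value of Mir155, 7.46.

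**Figure D2:**
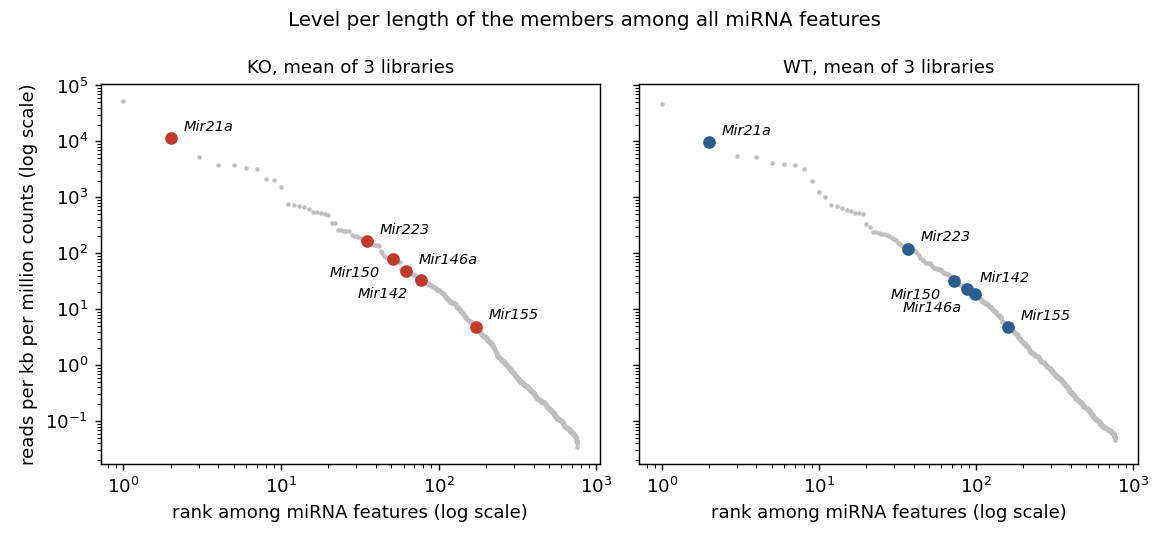
Mean level per length (y axis, CPM per kilobase, log scale) against rank (x axis, log scale) of miRNA features with a read, KO left and WT right, with the 6 members marked and other features in grey. Mir21a holds rank 2 in both genotypes, and Mir155 holds rank 173 for KO and 160 for WT.

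Mir21a made up almost all of the members' reads. It took 8.90% to 11.03% of the miRNA feature reads of KO libraries and 5.87% to 13.8% of WT libraries, while the other 5 together took 0.261% to 0.298% for KO and 0.122% to 0.259% for WT. The feature named Snord43 held 52.2% to 58.9% of the miRNA feature reads of KO libraries and 43.4% to 60.7% of WT libraries. Without it, a choice made after its values were seen, Mir21a took 23.1% ± 3.9 for KO and 19.3% ± 4.8 for WT (SD, n = 3 each). The other 5 then took 0.643% ± 0.091 for KO and 0.404% ± 0.081 for WT. All miRNA features together made up 1.02% ± 0.13 of all reads for KO and 0.942% ± 0.086 for WT (exact two-sided permutation test, p = 0.4, n = 3 each, where 0.1 is the smallest p possible).

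Between the genotypes none of the 6 members was called. All 6 passed the expression filter, and their fitted log2 fold changes, KO over WT, were all above 0, with a median of 0.55. Of all 624 tested features 40.9% had a value above 0, with a median of -0.08, and of the 205 tested miRNA features 65.4% did, with a median of 0.21. That miRNA median was 0.05 without KO replicate 2 alone and 0.59 without WT replicate 2. It was -0.19 without KO replicate 2 and WT replicate 1 together, where the median of the members was 0.25, with 4 of the 6 above 0. This pair was picked after the values were seen. It holds the KO library with the highest and the WT library with the lowest median miRNA level. Leaving it out therefore tends to lower KO over WT for miRNA features, here and wherever it is left out below. A single feature of the 624 (0.160%) had an adjusted p under 0.05 by edgeR's quasi-likelihood test, and it was lower in the KO libraries, so the share called higher was 0%. At an unadjusted p under 0.05 by edgeR there was 1 member, Mir150, while 6.41% of all features passed in either direction, 2.08% on the higher side, and 3.90% of miRNA features on the higher side. DESeq2 called none of the members either, and 3 had an unadjusted p under 0.05, as did 7.37% of all features by DESeq2. Every KO library lay above every WT library in CPM for Mir150 and Mir146a, which was so for 2.72% of all tested features and for 4.39% of the miRNA features. In bulk libraries fewer cells of a type and less RNA per cell cannot be told apart.

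The myeloid member Mir223 varied as much within a genotype as between them. Counts, always given by replicate number, were 655, 1094 and 944 for KO, against 459, 868 and 628 for WT. The mean level was 18.2 ± 4.1 CPM for KO and 13.4 ± 5.3 CPM for WT (SD, n = 3 each). KO replicates 2 and 3 stood above all WT libraries, but KO replicate 1, at 13.5 CPM, lay below WT replicate 2, at 19.1 CPM. The log2 fold change was 0.51 (SE 0.35, adjusted p = 0.733 by edgeR), and it was 0.93 without WT replicate 2 and 0.11 without KO replicate 2 and WT replicate 1 together.

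Mir142, of nearly all blood cells, varied little among KO libraries and more among WT libraries. Its counts were 95, 109 and 110 for KO, against 57, 91 and 68 for WT. This gave 2.13 ± 0.18 CPM for KO and 1.47 ± 0.48 CPM for WT (SD, n = 3 each). KO replicate 1, at 1.96 CPM, and WT replicate 2, at 2.00 CPM, were nearly equal, so the genotypes overlapped. The log2 fold change was 0.60 (SE 0.31, adjusted p = 0.730 by edgeR), and it was 0.96 without WT replicate 2 and 0.39 without KO replicate 2 and WT replicate 1. The overlapping feature Mir142b was counted 121, 148 and 111 times for KO, against 93, 135 and 116 times for WT, with a log2 fold change of 0.21 (SE 0.30, adjusted p = 0.838 by edgeR). With both summed to 1 feature, which was tried only once the values were known, the log2 fold change was 0.37 (SE 0.29). There were 1.01 to 1.36 reads of Mir142b per read of Mir142 in the KO libraries and 1.48 to 1.71 in the WT libraries. This ratio was not tested, no share of other feature pairs was computed, and the split of reads between the strands is uncertain.

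**Figure D3:**
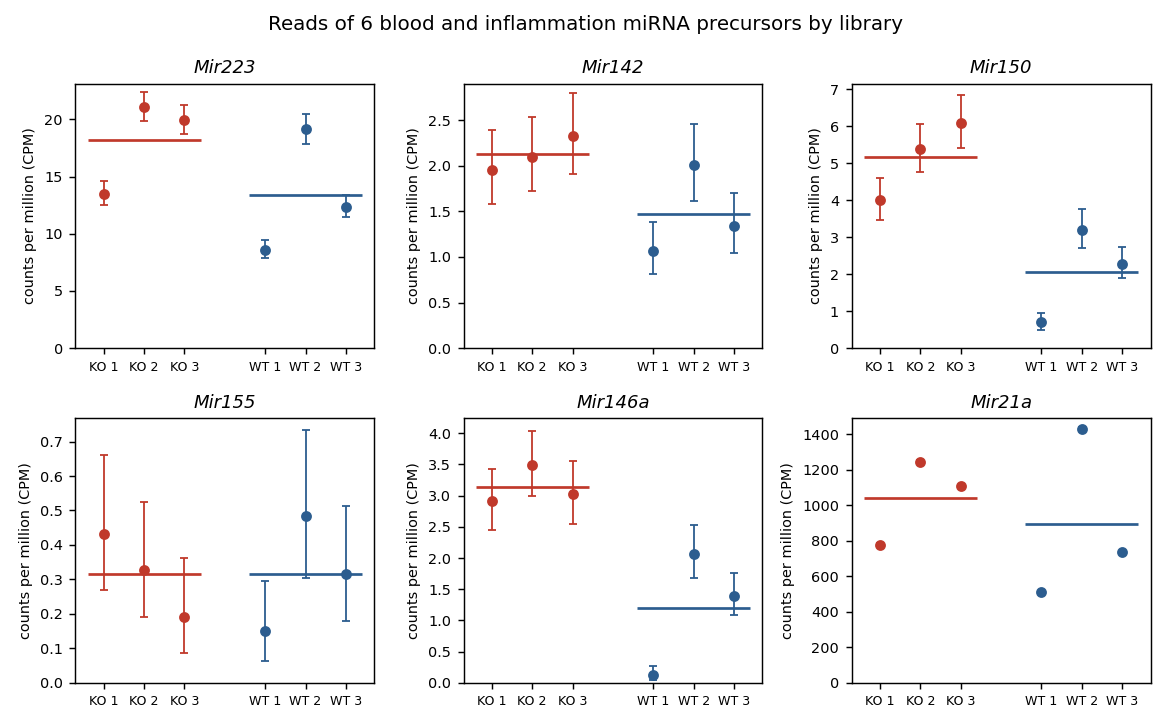
CPM (y axis, from 0, a scale of its own in each panel) of each member in KO replicates 1 to 3 (red) and WT replicates 1 to 3 (blue); bars are exact 95% binomial intervals of counting error and lines are genotype means. Mir150 and Mir146a do not overlap between the genotypes, and WT replicate 1 is the lowest library in every panel.

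The lymphoid member Mir150 stood apart between the genotypes without being called. KO counts were 194, 279 and 288, against WT counts of 37, 145 and 116. The mean level was 5.16 ± 1.06 CPM for KO and 2.06 ± 1.27 CPM for WT (SD, n = 3 each), a ratio of means of 2.51. The lowest KO library had 4.002 CPM (counting interval 3.46 to 4.61) and the highest WT library 3.19 CPM (2.70 to 3.76). The log2 fold change was 1.38 (SE 0.54, unadjusted p = 0.0378, adjusted p = 0.710 by edgeR), ninth highest of the 624 features. It was 1.06 without WT replicate 1, whose Mir150 level of 0.694 CPM was the lowest, and 0.91 with KO replicate 2 left out as well.

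Mir155 was near the limit of what these libraries could measure. The other lymphoid member, it was counted 21, 17 and 9 times for KO, against 8, 22 and 16 times for WT. The means were 0.317 ± 0.122 CPM for KO and 0.317 ± 0.167 CPM for WT (SD, n = 3 each). The genotypes overlapped throughout, and the counting interval of KO replicate 3, 0.0870 to 0.361 CPM, covered the values of KO replicate 2 and WT replicate 3. The log2 fold change was 0.09 (SE 0.52, adjusted p = 0.971 by edgeR), and its sign turned to -0.15 without WT replicate 1.

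Of the 2 members tied to inflammation, Mir146a had the largest fold change of the 6 with all libraries, but came after Mir150 without WT replicate 1, without KO replicate 1, and without KO replicate 2 and WT replicate 1 together. Counts were 141, 181 and 143 for KO, against 7, 94 and 71 for WT. Means were 3.14 ± 0.31 CPM for KO and 1.20 ± 0.98 CPM for WT (SD, n = 3 each), a ratio of means of 2.62. The KO libraries lay within 1.20-fold of each other, and the WT libraries spanned 15.8-fold, with WT replicate 1 at 0.131 CPM (counting interval 0.0528 to 0.271). The log2 fold change was 1.46 (SE 0.80, adjusted p = 0.730 by edgeR), seventh of the 624 features. Without WT replicate 1 it was 1.02 (SE 0.33, unadjusted p = 0.0224, adjusted p = 0.966), and with KO replicate 2 left out as well it was 0.81.

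The seed-sharing relative Mir146b had more reads than Mir146a in every library. Mir146b was counted 1133, 2122 and 2389 times for KO, against 905, 1911 and 1070 times for WT, and the genotypes overlapped. Its log2 fold change was 0.57 (SE 0.42, adjusted p = 0.733 by edgeR), and it was 1.14 without WT replicate 2 and 0.24 without KO replicate 2 and WT replicate 1. Per read of Mir146a there were 8.04, 11.7 and 16.7 reads of Mir146b for KO and 129, 20.3 and 15.1 for WT. The outlying ratio was that of WT replicate 1, with 7 reads of Mir146a and 905 of Mir146b. Features differ in length, 65 against 109 nt, so these ratios compare libraries and not the amounts of the pair. Per kilobase, the mean CPM of Mir146b was also higher, 351 against 48.3 for KO and 245 against 18.5 for WT.

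Mir21a, the most abundant member, overlapped between the genotypes. KO counts were 37667, 64528 and 52334, against WT counts of 27283, 64928 and 37319. The mean level was 1043 ± 240 CPM for KO and 892 ± 479 CPM for WT (SD, n = 3 each). The highest and the lowest of the 6 libraries were both WT, at 1430 and 512 CPM. The log2 fold change was 0.29 (SE 0.38, adjusted p = 0.822 by edgeR), it was 0.88 without WT replicate 2, and it turned to -0.17 without KO replicate 2 and WT replicate 1. At this depth counting error was small beside the spread, with a 95% interval of 506 to 518 CPM in WT replicate 1.

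**Figure D4:**
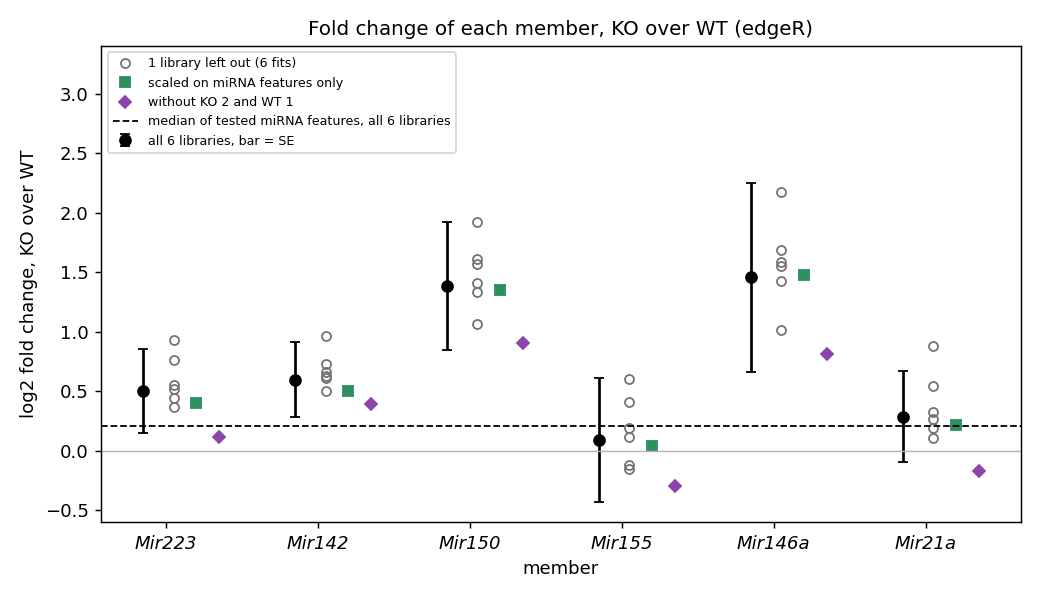
Log2 fold change, KO over WT (y axis), of each member with all 6 libraries (black, bar = SE), with each library left out (open circles), with scaling on miRNA features only (green) and without KO replicate 2 and WT replicate 1 (purple). Mir223, Mir142, Mir150 and Mir146a stay above 0 in every fit shown, and Mir155 and Mir21a reach -0.29 and -0.17 in the last.

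WT replicate 1 was the lowest library in CPM for all 6 members. By the log2 level after TMM scaling it was also lowest for all 6, and for 51.2% of the 205 tested miRNA features and 20.5% of all 624. The gap differed between members: relative to the mean of the 6 libraries, it was -0.72 for Mir142, -0.84 for Mir223, -0.85 for Mir155 and -0.88 for Mir21a, against -2.08 for Mir150 and -3.25 for Mir146a. Per read of Mir223 there were 55.4 to 59.0 reads of Mir21a for KO and 59.4 to 74.8 for WT. Reads of Mir150 per read of Mir223 numbered 0.255 to 0.305 for KO and 0.0806 to 0.185 for WT. Mir150 by itself already did not overlap in CPM, so this ratio adds no separate result. The share of other feature pairs whose ratios separate the genotypes was not computed.

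The tested features closest in profile to each member over the 6 libraries were mostly other miRNAs. The measure was Pearson's r of log2 CPM, given with Spearman's rho as a description over 6 libraries that share genotype and miRNA level. Mir223 was closest to Mirlet7g (r = 1.00, rho = 1.00) and Mir103-1 (r = 0.99, rho = 1.00). Mir142 was closest to Mir24-2 (r = 0.98, rho = 0.94) and Mir425 (r = 0.98, rho = 1.00), and Mir150 to Mir425 (r = 0.98, rho = 1.00) and Mir361 (r = 0.98, rho = 0.94). Mir146a was closest to Mir342 (r = 0.98, rho = 1.00) and to the member Mir150 (r = 0.98, rho = 0.83). Mir342 was counted 127, 138 and 96 times for KO, against 6, 57 and 38 times for WT, so it shared with Mir146a the very low count of WT replicate 1. Mir21a was closest to Mir148a (r = 0.99, rho = 0.94) and Mir24-1 (r = 0.98, rho = 0.94). Mir155 was the exception, closest to the snoRNA Snord82 (r = 0.95, rho = 0.89) and to mmu-mir-3535 (r = 0.94, rho = 0.83).

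Other miRNAs of blood were set beside the members, and none of their lists held a called feature by edgeR. Of 11 further lymphoid miRNAs 10 were tested, all 10 with values above 0 and a median log2 fold change of 0.37. Mir342, named above for its profile, was 1 of these 10, with a log2 fold change of 1.86 (SE 0.72, adjusted p = 0.710 by edgeR). It was the only 1 of the 10 with every KO library above every WT library in CPM, as were 4.39% of tested miRNA features. Without KO replicate 2 and WT replicate 1 only 3 of the 10 were above 0 and the median was -0.27, and without KO replicate 2 alone 6 were and the median was 0.06. Mir92-1 of the Mir17 cluster had 21.3 ± 0.7 CPM for KO and 18.9 ± 5.5 CPM for WT, and Mir181a-1, of the family known from early lymphocytes, had 12.5 ± 7.4 CPM for KO and 9.73 ± 3.11 CPM for WT. Of 11 further myeloid and granulocyte miRNAs 5 were tested, 4 above and 1 below 0, with a median of 0.59, which was 1.32 without WT replicate 2 and 0.03 without KO replicate 2 and WT replicate 1. Here too 1 of the 5 had every KO library above every WT library in CPM, beside the same 4.39% of tested miRNA features. Mir29a had 2.16 ± 0.92 CPM for KO and 1.08 ± 0.43 CPM for WT, and Mir23a had 2.07 ± 0.41 CPM for KO and 1.46 ± 0.75 CPM for WT. Mir27a, the 1 below 0 with all libraries, had 0.890 ± 0.272 CPM for KO and 1.01 ± 0.34 CPM for WT (log2 fold change -0.13, SE 0.36). Of 12 further miRNAs linked to inflammation only Mir22 was tested, with 3.85 ± 1.41 CPM for KO and 2.77 ± 1.12 CPM for WT and a log2 fold change of 0.53 (SE 0.43), which was 0.01 without KO replicate 2 and WT replicate 1. The other 10 with a read had at most 47 reads in a library.

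Markers of cells outside the mature myeloid and lymphoid lines gave no call by edgeR with its expression filter. All 9 miRNAs of primitive blood cells had a read and 8 were tested, 5 above and 3 below 0, with a median log2 fold change of 0.17, and of -0.32 without KO replicate 2 and WT replicate 1. Mir10a, known from stem and progenitor cells, had 60.1 ± 5.5 CPM for KO and 58.0 ± 24.3 CPM for WT. Mir126a, also known from stem cells, had 274, 394 and 821 reads for KO, against 29, 245 and 173 for WT (edgeR log2 difference 1.75, SE 0.80, adjusted p = 0.710). Mir100 had 14, 335 and 24 reads for KO, against 492, 228 and 220 for WT (edgeR log2 difference -1.26, SE 1.10; adjusted p = 0.759). The scarcer Mir125a, picked after its values were seen, had 17, 25 and 13 reads for KO, against 3, 10 and 6 for WT (edgeR log2 difference 1.57, SE 0.51, unadjusted p = 0.0190, adjusted p = 0.6995). Mir126a and Mir125a were the 2 of the 8 with every KO library above every WT library in CPM. This was so for 2.72% of all tested features and 4.39% of tested miRNA features. Of 5 erythroid miRNAs 3 were tested, all above 0, with a median of 1.06, and their summed level ran from 3.23 to 8.49 CPM for KO and 1.61 to 4.02 CPM for WT, highest in KO replicate 2. That median was 0.16 without KO replicate 2 and WT replicate 1. Of 20 miRNAs known from stroma, muscle, epithelium, liver or neurons 16 had a read and 5 were tested, all above 0, with a median of 0.76. Without KO replicate 2 and WT replicate 1 the filter kept 6 of them, 1 above and 5 below 0, with a median of -0.24. With no filter edgeR called 13 of all 1823 features and 5 of these 16. The 5 were Mir1a-1, Mir1a-2, Mir133a-1 and Mir133a-2, higher in KO with nearly all reads in KO replicate 2, and Mir122, lower in KO. The summed level of all 16 ran from 3.55 to 23.1 CPM for KO and 2.27 to 5.97 CPM for WT. Of the 16, 1 to 4 were at 0 in a KO library and 3 to 5 in a WT library. Their part in the members' values was not tested.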

How the data were processed

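Bowtie2 2.3.4.1, Trimmomatic 0.38 and the build GRCm38 are named, per the submitters' processing notes. Not given in the sources used here are the counting tool, its annotation, its strand setting and how reads with several matches were treated. The deposited values are raw read counts per feature named by position, with no recorded normalization, in 1 table per library that lists features with at least 1 read; others were set to 0. Features were named from GENCODE M21 at identical start and end. CPM is the count over the library total, and intervals are exact Clopper-Pearson at 95%, covering counting error only, since PCR reads are not independent molecules.

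Counts of all features were tested with edgeR 4.0.16 in R 4.3.3 (TMM, default filter with minimum count 10 and minimum total 15, quasi-likelihood test, two-sided, Benjamini-Hochberg over the 624 features tested, threshold 0.05). SE is the log2 fold change over the square root of F. DESeq2 1.42.0, other scalings and filters, a replicate block and leaving out libraries were alternatives. The code was tested on simulated data. Members and lists were chosen with earlier results of these data known. Named were all members, up to 3 most abundant of each list, and the 2 features closest in profile to each member. Mir125a, Mir122, the muscle miRNAs and the feature Snord43 were named in addition, after their values were seen.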

Additional observations from a re-analysis of the deposited data

How the results depend on the processing

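No member was called under any of the 15 alternatives (Mir155 was not tested under the stricter filter, 50 counts or more). Mir223, Mir150 and Mir146a had log2 fold changes above 0 in each of 14 and Mir142 in each of 15, including those added after the data were seen. Leaving out 1 library gave 0.36 to 0.93 for Mir223, 0.51 to 0.96 for Mir142, 1.06 to 1.92 for Mir150, 1.02 to 2.18 for Mir146a, 0.11 to 0.88 for Mir21a and -0.15 to 0.60 for Mir155, with the lowest values without WT replicate 1 and the highest without WT replicate 2. Mir155 was also below 0 without KO replicate 1 (-0.12). Without KO replicate 2 and WT replicate 1 together, Mir155 was at -0.29 and Mir21a at -0.17. The number of features called, 1 with all libraries, was 13 with no filter and 0 with both of those libraries left out, and ranged from 0 to 1 with 1 library left out. The median log2 fold change of all features was -0.08 with TMM, 0.02 with RLE and -0.24 with factors from miRNA features only, which put the miRNA median at 0.04, Mir150 at 1.35 and Mir146a at 1.47.

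With the replicate number as a block, no feature was called and the values were 1.60 for Mir150 (adjusted p = 0.539) and 1.92 for Mir146a. Deviations of same-numbered libraries correlated at -0.13, 0.40 and -0.36, and those of differently numbered libraries at -0.46 to 0.59. These values show no pairing by number, but with so few libraries per genotype they cannot exclude one. Mir155 had 8 to 22 reads per library, so its counting intervals were wide.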
